A study of Mus musculus with 6 samples.

Results

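The RNA of matrix proteases and of their inhibitors was compared in kidneys of db/db mice with and without long-term atorvastatin. Members were picked by gene symbol: matrix metalloproteinases (Mmp and a number), their tissue inhibitors (Timp and a number), Adam and Adamts with a number, every Adamtsl symbol, cathepsins (Cts and a single letter), and the plasminogen activators with their receptor (Plat, Plau, Plaur). This gave 89 of the 17684 genes measured. Mice of both groups were db/db, which lack a working leptin receptor and become obese and diabetic, of strain C57 BLKS/L in the sample records (C57BLKS/J in the paper), and 50 weeks old. The Db group was given normal saline for 40 weeks. The Db + Ato10 group was given atorvastatin, an inhibitor of HMG-CoA reductase in cholesterol synthesis, at 10 mg/kg per day over 40 weeks, given by mouth on some days of each week by the study's methods. A protocol field of the sample records names atorvastatin for all 6 samples, and the groups used here follow the treatment field, which separates saline from atorvastatin. Only animals that lived to this age could be sampled, and the methods enrolled males only. Each group had 3 libraries, and p-values measure the spread between these samples.

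Matrix metalloproteinases (MMPs) are zinc proteases that cut collagens, gelatin, proteoglycans and many cell surface and secreted proteins, and TIMPs block them by binding the zinc site. ADAM proteins shed the outer domains of membrane proteins, ADAMTS proteases act on proteoglycans and procollagens, and ADAMTS-like proteins carry the ancillary domains of that family without a protease. Cathepsins are mostly lysosomal proteases, and the plasminogen activators turn plasminogen into plasmin, which cuts fibrin and activates some MMPs. In the kidney these families take part in basement membrane turnover, in fibrosis and in the work of infiltrating leukocytes.

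Library totals were 13134930, 11381678 and 12426051 expected counts in Db replicates 1 to 3 and 14578023, 14667909 and 13133241 in Db + Ato10 replicates 1 to 3. Values are given as CPM (counts scaled to library size after TMM), and 3 counts equal 0.198 to 0.260 CPM, a floor that covers counting error only. Some libraries stood apart. Db replicate 1 held 2 counts over 4 Y-linked genes, against 1419 to 2116 in the other libraries, which goes against a design of males only. A principal component analysis put 71.1% of the variance on its first axis, with values of -55.4, -26.9 and -52.0 for the Db libraries and of 107, 46.1 and -18.8 for the Db + Ato10 libraries. Db + Ato10 replicate 1 was thus the library farthest from the Db group and Db + Ato10 replicate 3 the nearest, so results are also given without each of them and without Db replicate 1. The kidney markers Lrp2, Slc34a1, Umod, Aqp2 and Nphs1 were present in every library.

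Of the 89 members, 60 had at least 10 counts in at least 3 libraries and were tested, and 29 were not. Differences were called at a fold change over 1.5 and an adjusted p under 0.05 in the quasi-likelihood test of edgeR, adjusted by Benjamini-Hochberg over 13679 genes. By this rule 0 of the 60 members were called, as were 0.0% of all genes, and the smallest adjusted p over all genes was 0.239. At an unadjusted p under 0.05, 27 members had higher values with atorvastatin and 4 had lower ones (45.0% and 6.67% of those tested), where 11.2% of all genes were higher and 5.71% lower. DESeq2, a further test, called 19 members higher and 2 lower, against 5.17% and 1.29% of all genes. Without Db + Ato10 replicate 3, edgeR called 24 members higher and 1 lower, against 6.67% and 2.36% of all genes, and it called 0 members when any other library was left out. These counts hold members that passed the filter through the Db + Ato10 group, and in a fit of only the genes with at least 10 counts in every library 20 of 50 members were higher and 3 lower at an unadjusted p under 0.05, among 2040 of 12675 genes in either direction. An exact permutation test of 3 against 3 libraries cannot go below p = 0.1, so single members are described mainly by their values. With all libraries the edgeR adjusted p was 0.239 or more for every tested member, also where only a DESeq2 adjusted p is printed.

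In 18 tested members every Db + Ato10 library lay above every Db library and in 4 below, 30.0% and 6.67% of the 60, where 12.0% of all genes were above and 11.3% below. Part of this is fixed by the filter: Mmp3, Mmp9 and Timp1 reached 10 counts in no Db library, so they could be tested only because they were high in the Db + Ato10 group, and 6 further members (Mmp7, Mmp12, Adam8, Adam23, Adam33 and Adamts4) reached 10 counts in fewer than 3 Db libraries. Among the 50 members with at least 10 counts in every library, 13 lay above without overlap and 3 below, beside 11.0% and 11.6% of the genes with such counts. With Db replicate 1 left out, a step chosen after seeing the data as were the next, 20 members lay above and 5 below (all genes 15.5% and 15.6%). Leaving out Db + Ato10 replicate 1 gave 18 and 7 (all genes 15.0% and 14.7%), and leaving out Db + Ato10 replicate 3 gave 34 and 5 (all genes 25.7% and 24.9%). These 3 sets hold all 60 tested members, with those that passed through the Db + Ato10 group. The median log2 fold change of the 60 tested members was 0.66, against -0.01 over all genes, and the medians of Db + Ato10 replicates 1, 2 and 3 against the Db mean were 1.1, 0.62 and 0.22. Those of Db replicates 1, 2 and 3 were -0.01, 0.22 and -0.19, so Db + Ato10 replicate 3 was level with Db replicate 2. Over the 50 members with at least 10 counts in every library the median was 0.54, against -0.02 over all genes with such counts. Over the 60 it was 0.43 with Db + Ato10 replicate 1 left out, 0.89 with Db + Ato10 replicate 3 left out and 0.71 with Db replicate 1 left out. In bulk tissue, more or fewer cells of a type and more or less RNA per cell cannot be told apart.

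By family, the median log2 fold change was 2.77 over the 13 tested MMPs, 1.27 over 3 TIMPs, 0.58 over 12 ADAMs, 0.45 over 13 ADAMTS, 0.36 over 5 ADAMTS-like genes, 0.63 over 11 cathepsins and 0.67 over the 3 genes of plasminogen activation. Upper-quartile scaling and DESeq2 gave the same order and sign. Other fits lowered the MMP median, to 1.95 with limma-voom, 1.81 with a block on replicate number and 1.32 with limma on log2(FPKM + 1). With no filter beyond 1 count the order changed, as the TIMP median was 0.49, below 0.82 for cathepsins. Some family medians of the main fit hold genes that passed the filter through the Db + Ato10 group. Over members with at least 10 counts in every library they were 1.36 for 9 MMPs, 0.26 for 2 TIMPs, 0.52 for 9 ADAMs, 0.39 for 12 ADAMTS and 1.35 for 4 ADAMTS-like genes, the last without Adamtsl3, so the MMPs did not stand clearly above the ADAMTS-like genes there. The other 2 families had such counts in every tested gene. Without Db + Ato10 replicate 1 every family median was lower, at 1.21 for MMPs, 0.61 for TIMPs, 0.38 for ADAMs, 0.20 for ADAMTS, -0.01 for ADAMTS-like genes, 0.39 for cathepsins and 0.08 for the plasminogen genes.

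**Figure D1:**
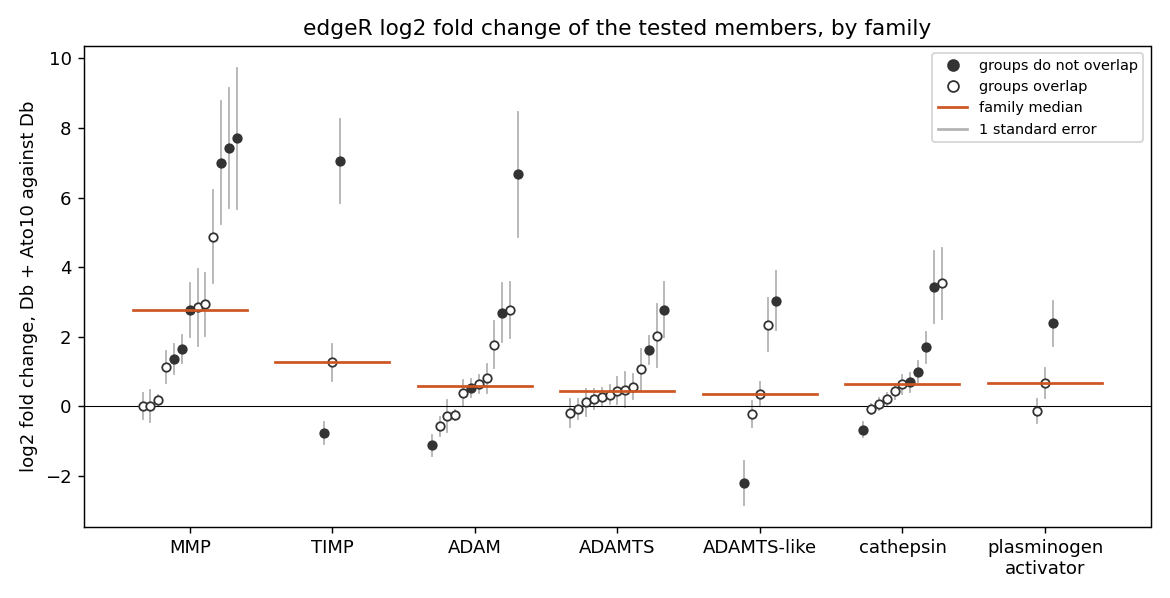
Log2 fold change (y axis, Db + Ato10 against Db, edgeR) of the 60 tested members, grouped by family on the x axis, with 1 standard error as a grey line, the family median as an orange line and filled points where the groups do not overlap. The 13 MMPs lie at or above 0 with a median of 2.77, while ADAM, ADAMTS-like, cathepsin and TIMP genes have filled points on both sides of 0.

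The inhibitors differed in direction. Timp1 (NCBI Gene 21857), an inducible secreted inhibitor of most MMPs, was at 0.397, 0.693 and 0.242 CPM in Db replicates 1 to 3 and at 131, 37.6 and 8.43 CPM in Db + Ato10 replicates 1 to 3. It was close to the counting floor in each Db library and well above it in each Db + Ato10 library, and the groups did not overlap. Its log2 fold change was 7.04 (standard error 1.21, edgeR adjusted p = 0.239, DESeq2 adjusted p = 4.26e-11), and it was 5.69 when Db + Ato10 replicate 1 was left out, 7.56 when Db + Ato10 replicate 3 was, and 6.98 when Db replicate 1 was. Its unadjusted p in edgeR was 0.000844, but Timp1 was tested only because it was high in the Db + Ato10 group, and with so few Db counts the size of the fitted change depends on the prior count. Timp3, the TIMP that binds to the matrix, was at 1930, 1470 and 1590 CPM in the Db libraries and at 786, 806 and 1350 CPM in the Db + Ato10 libraries. Every Db + Ato10 library was below every Db library, with Db + Ato10 replicate 3 nearest to them. Its log2 fold change was -0.76 (standard error 0.31, edgeR adjusted p = 0.286, DESeq2 adjusted p = 0.106), so neither test called it. Timp2, which also takes part in the activation of pro-MMP2 by MMP14, was at 53.6, 80.9 and 59.0 CPM in Db and at 273, 137 and 58.6 CPM in Db + Ato10. Its groups overlapped through Db + Ato10 replicate 3, and its log2 fold change of 1.27 (standard error 0.53) was 0.61 without Db + Ato10 replicate 1. Timp4 had at most 11 counts in a library and was not tested.

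Per length, in TPM, the mix of TIMP transcripts differed between the groups. Timp3 made up 96.3%, 92.8% and 95.2% of the summed Timp TPM in Db replicates 1 to 3, and 40.4%, 66.2% and 91.2% in Db + Ato10 replicates 1 to 3. Timp1 made up 0.123%, 0.277% and 0.091% in Db, and 41.2%, 19.1% and 3.51% in Db + Ato10. In Db + Ato10 replicate 1 the transcripts of Timp1 and Timp3 were thus about equally abundant, at 265.6 and 260.1 TPM, while in Db + Ato10 replicate 3 the share of Timp3 was just below the lowest Db share. The sum over all 4 TIMPs was 741, 585 and 616 TPM in Db and 644, 448 and 516 TPM in Db + Ato10, and these ranges overlapped. So the total of TIMP transcripts differed less than its make-up.

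Among the gelatinases, Mmp9 (NCBI Gene 17395), which neutrophils store in granules and which macrophages and tubular cells can also make, was at 0.397, 0.26 and 0.565 CPM in Db and at 245, 13.4 and 2.05 CPM in Db + Ato10. All Db + Ato10 libraries were above all Db libraries, and most of the signal lay in replicate 1. Its log2 fold change was 7.70 (standard error 2.03, DESeq2 adjusted p = 0.000336) and 4.21 without Db + Ato10 replicate 1. Mmp9 reached 10 counts in no Db library, so it was tested only because it was high in the Db + Ato10 group. Mmp2, the gelatinase of fibroblasts and other stromal cells, was at 3.66, 8.58 and 3.23 CPM in Db and at 67.1, 29.2 and 9.06 CPM in Db + Ato10. The lowest Db + Ato10 library lay only just above the highest Db library. The log2 fold change of Mmp2 was 2.77 (standard error 0.77, DESeq2 adjusted p = 0.00512), with 1.90 when Db + Ato10 replicate 1 was left out and 3.24 when Db + Ato10 replicate 3 was. Mmp14, the membrane-type enzyme that activates pro-MMP2 on the cell surface, was at 7.63, 25.7 and 8.48 CPM in Db and at 209, 89.9 and 19.8 CPM in Db + Ato10. Here Db replicate 2 was above Db + Ato10 replicate 3, so the groups overlapped, and DESeq2 called the gene at a log2 fold change of 2.94 (adjusted p = 0.00832).

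Mmp7 and Mmp3 had few counts in the Db group. Mmp7 (NCBI Gene 17393), matrilysin, a small MMP made by epithelial cells that is induced in injured tubules, was at 0, 1.65 and 0 CPM in Db and at 203, 69.3 and 6.77 CPM in Db + Ato10. Only Db replicate 2 held any Db counts of Mmp7, 19 in number, and each Db + Ato10 library was above it. The log2 fold change was 7.43 (standard error 1.72, DESeq2 adjusted p = 0.039) and 6.16 without Db + Ato10 replicate 1. Without Db replicate 2 the Db libraries held 0 counts, so the fitted value there is not a measure of size. Mmp7 reached 10 counts in a single Db library and passed the filter through the Db + Ato10 group. Mmp3, stromelysin 1, was at 0.238, 0 and 0.162 CPM in Db, at or below the floor, and at 50.9, 3.31 and 1.81 CPM in Db + Ato10. The groups did not overlap, and DESeq2 gave no adjusted p for this gene. For Mmp3 edgeR gave a log2 fold change of 7.00 (standard error 1.77) and 4.15 without Db + Ato10 replicate 1. Mmp3 reached 10 counts in no Db library and was also tested only because it was high in the Db + Ato10 group. Mmp12, the metalloelastase of macrophages, was at 0.874, 1.56 and 0.485 CPM in Db and at 63.1, 21.3 and 1.18 CPM in Db + Ato10. It was high in Db + Ato10 replicates 1 and 2 and within the Db range in replicate 3, with a DESeq2 log2 fold change of 4.89 (adjusted p = 0.000596).

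Several MMPs could not be tested because they were high in 1 or 2 libraries only. They are named here after their values were seen. Mmp8, the collagenase of neutrophils, had 3, 4 and 0 counts in Db and 7371, 55 and 2 counts in Db + Ato10. In Db + Ato10 replicate 1 it was the second most abundant MMP per length, at 316 TPM beside 332 TPM for Mmp7. Mmp13, the main interstitial collagenase of rodents, had 5, 0 and 2 counts in Db and 678, 12 and 2 in Db + Ato10. Mmp10, stromelysin 2, had 1, 1 and 0 counts in Db and 208, 16 and 0 in Db + Ato10. Mmp25, a membrane-anchored MMP of leukocytes, had at most 5 counts in a Db library and 169, 15 and 2 counts in Db + Ato10. In these 4 genes Db + Ato10 replicate 3 was within the range of the Db libraries. Mmp27 reached 29 counts in Db + Ato10 replicate 1 and 9 in replicate 2, and Mmp16, Mmp1b, Mmp20 and Mmp21 had at most 7 counts in any library.

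Among the remaining tested MMPs, Mmp23 was at 3.50, 3.38 and 3.15 CPM in Db and at 16.1, 9.79 and 5.59 CPM in Db + Ato10, without overlap, with a log2 fold change of 1.65 (standard error 0.40, DESeq2 adjusted p = 0.00914). Mmp15, a membrane-type MMP of epithelia, had a log2 fold change of 1.36 without overlap of the groups in CPM but with overlap in TPM, and was called by neither test on all libraries. Mmp19 and Mmp11 had log2 fold changes of 2.85 and 1.14 with overlapping groups, and that of Mmp19 was 0.67 without Db + Ato10 replicate 1. Mmp24, Mmp17 and Mmp28 had log2 fold changes of 0.18 (0.10 without Db replicate 1), 0.01 and 0.00, and the signs of Mmp17 (-0.60 without Db + Ato10 replicate 1) and Mmp28 (-0.19 without Db + Ato10 replicate 3) turned with a library left out. Mmp24 held the largest or second largest share of MMP transcripts in each Db library (26.9%, 20.1% and 32.7% of the summed Mmp TPM) and 0.749%, 3.41% and 16.1% in the Db + Ato10 libraries, while its own level stayed between 16.8 and 22.7 CPM. The summed MMP level was 25.2, 43.4 and 24.4 TPM in Db and 1090, 253 and 51.7 TPM in Db + Ato10, and each Db + Ato10 library was above each Db library. The most abundant MMP transcript was thus Mmp24 or Mmp14 in the Db libraries and Mmp7 in each Db + Ato10 library, with Mmp8 close to it in replicate 1.

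**Figure D2:**
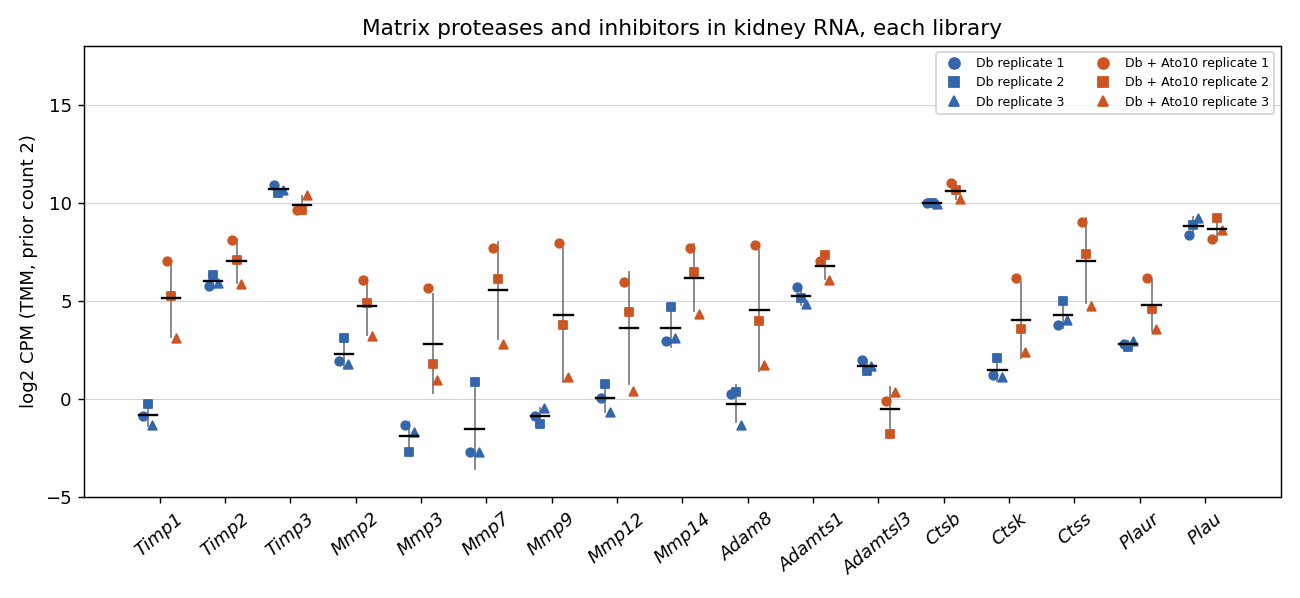
Log2 CPM (y axis, TMM scaling, prior count 2) of 17 members in each library, Db in blue and Db + Ato10 in orange, with replicates 1, 2 and 3 as circles, squares and triangles, group means as black bars and 1 SD (n = 3) as grey lines. Timp1, Mmp3 and Mmp9 are near the floor in Db, and Mmp7 is at 0 counts in Db replicates 1 and 3 and at 1.65 CPM in Db replicate 2. Db + Ato10 replicate 1 is the highest library for most genes shown, while Timp3 and Adamtsl3 are lower in every Db + Ato10 library.

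Neutrophil markers were high in Db + Ato10 replicates 1 and 2, and in replicate 3 their sum was close to that of Db replicate 2. The 9 neutrophil markers summed to 23.0, 36.1 and 16.7 TPM in Db and to 42764, 410 and 39.3 TPM in Db + Ato10. S100a9, the most abundant, was at 21112 TPM in Db + Ato10 replicate 1 and at 23.0 TPM in replicate 3, and the 3 markers that could be tested were each higher without overlap. Of the 9 markers, 4 were at 0 in Db replicate 2, 3 in Db replicate 3 and 4 in Db + Ato10 replicate 3. Macrophage markers summed to 147, 326 and 228 TPM in Db and to 6875, 1985 and 337 TPM in Db + Ato10, with 7 of 9 higher without overlap, none at 0 in any library, and Lyz2 the most abundant. The markers of injured tubules, led by Lcn2, summed to 13.2, 137 and 23.1 TPM in Db and to 11084, 2499 and 799 TPM in Db + Ato10, with 4 of 5 higher without overlap and none at 0. Over all genes tested, 12.0% were higher without overlap. The part of these cell types in the levels of Mmp7, Mmp8, Mmp9, Mmp12 and Timp1 was not tested.

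A run of 10 neighbouring Mmp genes lies on mouse chromosome 9, in the order Mmp13, Mmp12, Mmp1b, Mmp3, Mmp1a, Mmp10, Mmp8, Mmp27, Mmp20 and Mmp7 (RefSeq, assembly GRCm38.p6). Of the 9 measured here, Mmp1b had 1 count in all and Mmp20 at most 7 in a library. The others had their highest counts in Db + Ato10 replicate 1, the library farthest from the Db group. The share of all genes that were highest there was not counted. Within the run the libraries differed by gene. Mmp7 had 3087, 1026 and 86 counts in the Db + Ato10 libraries, Mmp12 had 958, 316 and 15, and Mmp8 had 7371, 55 and 2, so that Mmp8 was concentrated in replicate 1 far more than Mmp7 or Mmp12 was. Elsewhere, Ctsk and Ctss lie next to each other on chromosome 3 and Adamts1 and Adamts5 on chromosome 16.

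**Figure D3:**
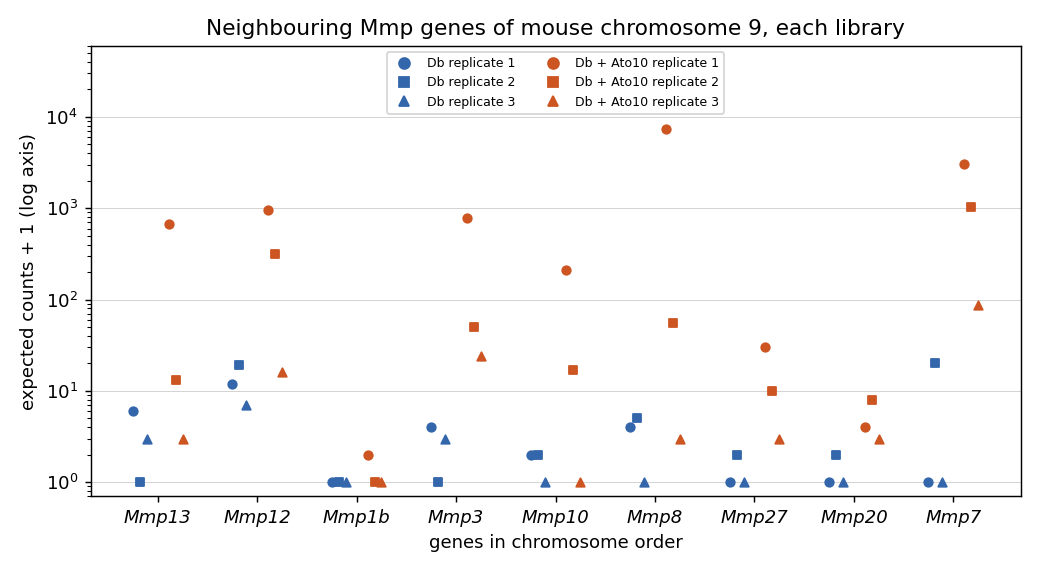
Expected counts plus 1 on a log axis for the 9 measured genes of the chromosome 9 run, in chromosome order on the x axis, for each library (Db in blue, Db + Ato10 in orange, replicates 1, 2 and 3 as circles, squares and triangles). Db + Ato10 replicate 1 reaches 7371 counts in Mmp8 and 3087 in Mmp7, while no Db library exceeds 19 counts in any of these genes.

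RefSeq promoters (GRCm38.p6), from 250 bases before to 50 after the start of transcription, were read for 57 of the 89 members, all of which had been matched by gene number. They were searched for TGANTCA, where N is any base, a pattern that includes the site of AP-1 (the Fos and Jun factors), in which the middle base is G or C. Both strands are covered, since the motif is its own reverse complement. It was present in 7.81% of all 32851 promoters. Of the 17 MMP genes with a promoter 7 held it, all of them in the chromosome 9 run (Mmp13, Mmp12, Mmp1b, Mmp3, Mmp10, Mmp20 and Mmp7), beside 8.97% of all genes with a promoter. Among the other members it was found in Plaur and in Adam19 and Adam1b, and in 0 of the TIMP, ADAMTS, ADAMTS-like and cathepsin promoters. The 100 bases before the start are shown for 6 members whose levels are described above or below, 5 from the run and Plaur, with the matching letters in capitals, because in each the match lies within 70 bases of the start. The strand is + and the build GRCm38.p6 for all 6, at chr9:7691990-7692089 for Mmp7, chr9:7445722-7445821 for Mmp3, chr9:7502242-7502341 for Mmp10, chr9:7347274-7347373 for Mmp12, chr9:7272414-7272513 for Mmp13 and chr7:24462383-24462482 for Plaur.
Mmp7: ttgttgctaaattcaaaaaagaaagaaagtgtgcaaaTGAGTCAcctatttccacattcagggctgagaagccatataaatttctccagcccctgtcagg
Mmp3: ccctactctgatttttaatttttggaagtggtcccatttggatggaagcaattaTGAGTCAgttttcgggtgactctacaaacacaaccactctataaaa
Mmp10: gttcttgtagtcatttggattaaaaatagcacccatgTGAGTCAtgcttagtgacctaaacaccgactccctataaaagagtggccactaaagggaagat
Mmp12: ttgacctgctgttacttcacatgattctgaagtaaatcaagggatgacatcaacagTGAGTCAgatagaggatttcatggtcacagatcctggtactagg
Mmp13: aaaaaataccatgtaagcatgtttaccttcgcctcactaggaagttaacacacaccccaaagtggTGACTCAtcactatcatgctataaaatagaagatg
Plaur: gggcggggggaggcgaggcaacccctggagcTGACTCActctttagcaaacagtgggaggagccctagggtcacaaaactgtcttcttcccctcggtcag
Before the RefSeq start, the match begins at 63 bases in both Mmp7 and Mmp10, 46 in Mmp3 and 44 in Mmp12. It begins at 35 bases in Mmp13 and 69 in Plaur. These are distances to the annotated start, which was not measured here. Mmp20 (with A as the middle base, so outside the AP-1 site) and Mmp1b carry the letters too and had at most 7 counts in a library. No match was found for Mmp8, Mmp9 or Timp1. Promoters were read for all 4 TIMP genes but for 17 of 22 MMP genes. For Mmp8 and Mmp9 the lack of a match may thus also mean that no promoter was read. The E-box CACGTG, also its own reverse complement, was present in 7.15% of all promoters and in 4 of 10 cathepsin genes with a promoter (Ctsa, Ctsd, Ctsf and Ctsl), beside 8.09% of all genes. It was also found in Mmp7, Adam10, Adam19 and Adamts17. A match describes the letters of the sequence and shows no binding.

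Among the ADAM proteases, Adam8 (NCBI Gene 11501), a sheddase of leukocytes, was at 1.03, 1.13 and 0.242 CPM in Db and at 228, 15.7 and 3.15 CPM in Db + Ato10. As for Mmp9, the groups did not overlap and replicate 1 held most of the signal. Its log2 fold change was 6.67 (standard error 1.79, DESeq2 adjusted p = 0.00162) and 3.55 without Db + Ato10 replicate 1. Adam19, which is expressed in mesenchyme and vessels, was at 2.62, 2.43 and 1.05 CPM in Db and at 27.4, 9.18 and 2.76 CPM in Db + Ato10, with a log2 fold change of 2.69 (standard error 0.85, DESeq2 adjusted p = 0.0178) and 1.56 without Db + Ato10 replicate 1. Adam23, which lacks the zinc site and acts in adhesion, was at 0.238, 0.867 and 0.323 CPM in Db and at 4.08, 4.79 and 0.788 CPM in Db + Ato10. It was higher in Db + Ato10 replicates 1 and 2 and within the Db range in replicate 3. Adam1a went the other way, at 8.11, 6.93 and 6.79 CPM in Db and 2.17, 3.78 and 4.10 CPM in Db + Ato10, with a log2 fold change of -1.12 (standard error 0.30, DESeq2 adjusted p = 0.0231). Its reads were divided with its close copy Adam1b in every library, as its counts were never whole numbers, so its level is uncertain.

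Adam15 and Adam9 had the highest mean TPM of the ADAMs. Adam15 was at 72.9, 70.2 and 75.5 CPM in Db and at 150, 75.8 and 87.7 CPM in Db + Ato10, narrowly without overlap, with a log2 fold change of 0.52 that was 0.17 without Db + Ato10 replicate 1. Adam9 was at 128, 102 and 117 CPM in Db and at 105, 89.1 and 97.3 CPM in Db + Ato10, with overlapping groups and a log2 fold change of -0.25 (-0.16 without Db replicate 1). In TPM the groups of Adam15 overlapped, and Adam9 was lower in each Db + Ato10 library. Adam10 and Adam17, the sheddases of Notch and of TNF and EGF receptor ligands, had log2 fold changes of 0.64 and 0.39, with overlapping groups, and that of Adam17 was -0.17 without Db + Ato10 replicate 1. The other tested ADAMs, Adam12, Adam11, Adam33 and Adam22, had log2 fold changes of 1.77, 0.80, -0.28 and -0.58, and the groups of each overlapped. With a library left out Adam11 was as low as 0.50 and Adam33 lay between -0.58 and -0.09. The 11 untested ADAMs, many of them genes of the testis, had at most 11.2 counts in a library except for Adam28, which reached 29 in Db + Ato10 replicate 1.

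In the ADAMTS family, Adamts1 (NCBI Gene 11504), a proteoglycanase that cuts versican and aggrecan, was the most abundant in TPM and was at 52.6, 35.2 and 27.9 CPM in Db and at 130, 161 and 65.6 CPM in Db + Ato10. All Db + Ato10 libraries lay above the Db range, and here replicate 2 and not replicate 1 was the highest. Its log2 fold change of 1.62 (standard error 0.39, DESeq2 adjusted p = 0.00465) was 1.56 when Db + Ato10 replicate 1 was left out, 1.92 when Db + Ato10 replicate 3 was, and 1.93 when Db replicate 1 was. Adamts2, which removes the amino-terminal propeptide of fibrillar procollagens, was at 3.02, 4.25 and 2.83 CPM in Db and at 48.3, 16.1 and 4.88 CPM in Db + Ato10. It did not overlap either, with a log2 fold change of 2.78 (standard error 0.80, DESeq2 adjusted p = 0.00677) and 1.65 without Db + Ato10 replicate 1. Its relatives among the procollagen N-proteinases, Adamts3 and Adamts14, had log2 fold changes of -0.20 and -0.08, the former -0.58 without Db + Ato10 replicate 1 and the latter 0.03 without Db + Ato10 replicate 2. Adamts10, which binds fibrillin microfibrils, had 0.56, and 0.12 without Db + Ato10 replicate 1. The proteoglycanases Adamts4, Adamts5, Adamts9 and Adamts15 had 2.03, 0.45, 0.33 and 0.22, all with overlapping groups, and Adamts4 had 0.57 without Db + Ato10 replicate 1 and Adamts15 -0.09 without Db + Ato10 replicate 3. Without Db + Ato10 replicate 1 Adamts5 had 0.20 and Adamts9 0.14. Adamts7, Adamts16, Adamts6 and Adamts13, the last being the protease of von Willebrand factor, had 1.06, 0.48, 0.28 and 0.11. With a library left out these values moved, to 0.17 for Adamts7 (Db + Ato10 replicate 1), 0.05 for Adamts16 (Db + Ato10 replicate 2), 0.12 for Adamts6 and -0.18 for Adamts13 (both Db replicate 1). Adamts1 and Adamts2 were thus the 2 of 13 tested genes whose groups did not overlap, 15.4% beside the 12.0% of all genes that were higher without overlap. The untested Adamts8 reached 27 counts, and Adamts12, Adamts17, Adamts18 and Adamts20 at most 10.

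The ADAMTS-like genes were split. Adamtsl4, linked to fibrillin microfibrils, was at 3.34, 4.16 and 2.99 CPM in Db and at 63.4, 17.3 and 5.36 CPM in Db + Ato10, without overlap, with a log2 fold change of 3.04 (standard error 0.86, DESeq2 adjusted p = 0.00475) and 1.70 without Db + Ato10 replicate 1. Adamtsl5 was at 1.99, 2.43 and 1.37 CPM in Db and at 16.7, 11.1 and 1.73 CPM in Db + Ato10, so replicate 3 was within the Db range. Adamtsl3 was at 3.73, 2.51 and 3.07 CPM in Db and at 0.79, 0.135 and 1.10 CPM in Db + Ato10. It was lower in each Db + Ato10 library, with a log2 fold change of -2.20 (standard error 0.63, DESeq2 adjusted p = 0.0266) and -2.35 without Db + Ato10 replicate 1, and with 2 counts in Db + Ato10 replicate 2. Adamtsl2 and Adamtsl1 overlapped, at log2 fold changes of -0.22 and 0.36, and the sign of Adamtsl2 turned when Db replicate 2 (0.02) or Db + Ato10 replicate 2 (0.06) was left out. That of Adamtsl1 turned without Db + Ato10 replicate 1 (-0.01).

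Fibroblast and myofibroblast markers, led by Dcn, summed to 71.9, 88.2 and 78.0 TPM in Db and to 697, 257 and 112 TPM in Db + Ato10, with 5 of 9 higher without overlap (all genes 12.0%) and none at 0. Each Db + Ato10 library was above the Db range of this sum. The same held in CPM for 18 of the 60 tested members (30.0%, all genes 12.0%), Adamts2, Adamtsl4 and Ctsk among them. For Mmp2 this held in CPM but not in TPM, where Db + Ato10 replicate 3 was at 4.88 and Db replicate 2 at 4.90. The part of fibroblasts and myofibroblasts in the levels of these genes was not tested.

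The cathepsins Ctsd and Ctsb were the most abundant members per length. Each stood at 826 to 2184 TPM, against at most 332 TPM for any MMP and 713 TPM for Timp3. Ctsd (NCBI Gene 13033), the aspartic protease of lysosomes, was at 948, 1180 and 889 CPM in Db and at 2630, 2030 and 1390 CPM in Db + Ato10. Every Db + Ato10 library was above every Db library, at a log2 fold change of 1.00 (standard error 0.31, DESeq2 adjusted p = 0.0161), with 0.77 when Db + Ato10 replicate 1 was left out and 1.22 when Db + Ato10 replicate 3 was. Ctsb, a cysteine cathepsin, was at 1020, 1020 and 965 CPM in Db and at 2080, 1610 and 1160 CPM in Db + Ato10. Its groups did not overlap, its log2 fold change was 0.69 (standard error 0.28), and DESeq2 did not call it (adjusted p = 0.0864). Ctsl, the third in TPM, overlapped at 0.43. Over all cathepsins the sum was 3159, 3659 and 3080 TPM in Db and 6562, 5501 and 3695 TPM in Db + Ato10, and the Db + Ato10 libraries were again above the Db range.

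Ctss, Ctsk and Ctsc had the largest log2 fold changes of the cathepsins. Ctss (NCBI Gene 13040), which cuts the invariant chain in antigen presentation and degrades elastin, was at 13.7, 31.6 and 16.0 CPM in Db and at 517, 168 and 26.8 CPM in Db + Ato10. Db + Ato10 replicate 3 was below Db replicate 2, and the log2 fold change was 3.54 (standard error 1.02, DESeq2 adjusted p = 0.00236) and 2.27 without Db + Ato10 replicate 1. Ctsk, a collagenolytic cathepsin, was at 2.15, 4.07 and 2.02 CPM in Db and at 71.5, 11.5 and 5.12 CPM in Db + Ato10. The groups did not overlap, and the log2 fold change of Ctsk was 3.42 (standard error 1.03, DESeq2 adjusted p = 0.00491) and 1.61 without Db + Ato10 replicate 1. Ctsc, which activates the serine proteases of granulocytes, was at 31.5, 53.1 and 37.0 CPM in Db and at 217, 108 and 66.2 CPM in Db + Ato10, with no overlap and a log2 fold change of 1.69 (standard error 0.45, DESeq2 adjusted p = 0.0111), and 1.11 without Db + Ato10 replicate 1. Ctss made up 0.603%, 1.2% and 0.723% of the summed cathepsin TPM in Db and 9.84%, 4.25% and 0.95% in Db + Ato10.

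Ctsf was the single cathepsin that was lower without overlap, at 97.4, 96.2 and 103 CPM in Db and 51.0, 50.8 and 84.4 CPM in Db + Ato10. Its Db libraries were close together, its log2 fold change was -0.67 (standard error 0.22, DESeq2 adjusted p = 0.124), and without Db + Ato10 replicate 3 it was called by edgeR at -0.95 (adjusted p = 0.0266). Ctsz, Ctsa, Ctsh and Ctso had log2 fold changes of 0.63, 0.20, 0.07 and -0.07, with overlapping groups, and Ctsz had 0.34 without Db + Ato10 replicate 1. With a library left out Ctsa lay between 0.13 and 0.31, and the signs of Ctsh (-0.02 without Db replicate 2) and Ctso (0.04 without Db + Ato10 replicate 1) turned. Of the untested cathepsins, Ctsg, a granule protease of neutrophils, had 1, 0 and 0 counts in Db and 168, 1 and 0 counts in Db + Ato10, and Ctse and Ctsw reached 59 and 37 counts. Ctsg was thus above 1 count in Db + Ato10 replicate 1 only.

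In plasminogen activation the receptor and the enzymes differed. Plaur (NCBI Gene 18793), the receptor that holds urokinase at the cell surface, was at 6.75, 6.15 and 7.51 CPM in Db and at 71.7, 23.9 and 11.7 CPM in Db + Ato10. The Db libraries were tightly grouped and each Db + Ato10 library was above them. Its log2 fold change was 2.39 (standard error 0.65, DESeq2 adjusted p = 0.00596), with 1.39 when Db + Ato10 replicate 1 was left out, 2.82 when Db + Ato10 replicate 3 was, and 2.40 when Db replicate 1 was. Plau, urokinase itself, which renal tubules make in large amounts, was at 325, 464 and 607 CPM in Db and at 284, 589 and 390 CPM in Db + Ato10. These groups overlapped, at a log2 fold change of -0.14 (standard error 0.35) whose sign turned when Db replicate 3 (0.09) or Db + Ato10 replicate 1 (0.08) was left out. Plat, tissue plasminogen activator, was at 71.8, 51.3 and 50.2 CPM in Db and at 158, 53.7 and 64.0 CPM in Db + Ato10, so its log2 fold change of 0.67 rested on replicate 1 and was 0.03 without it. Per length, Plau was above Plaur in every library, at 194 TPM beside 78.9 TPM even in Db + Ato10 replicate 1.

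Transcripts were read for Timp1 and Plaur. For Timp1, the transcripts NM_011593.2 and NM_001044384.1 had 1249 and 710 counts in Db + Ato10 replicate 1 and at most 6.62 and 1.66 counts in a Db library. For Plaur, NM_011113.4 had 27.4, 54.4 and 59.8 counts in Db and 1071, 329 and 81.7 counts in Db + Ato10, while the predicted transcript XM_006539639.3 had 57.6, 16.6 and 33.2 counts in Db and 16.6, 24.9 and 66.3 counts in Db + Ato10. The higher Plaur level in Db + Ato10 replicates 1 and 2 was thus carried by NM_011113.4.

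Of 56 further genes of the same pathways, listed with earlier results of these data known, 49 were tested, and edgeR called 0 of them. At an unadjusted p under 0.05, 21 were higher and 1 lower (all genes 11.2% and 5.71%), and DESeq2 called 12 higher and 0 lower (all genes 5.17% and 1.29%). The median log2 fold change of the 49 was 0.86, with 0.87 for the plasmin system, 0.68 for other inhibitors, 1.17 for cross-linking enzymes and 1.48 for substrates. Without Db + Ato10 replicate 1 these were 0.51, 0.51, 0.50, 0.57 and 0.57. Cstb, an inhibitor of cysteine cathepsins, was at 78.0, 95.9 and 83.0 CPM in Db and at 298, 222 and 110 CPM in Db + Ato10, without overlap. Reck, a membrane inhibitor of MMPs, was at 6.83, 7.71 and 7.03 CPM in Db and at 9.75, 3.71 and 7.56 CPM in Db + Ato10, with overlap. Among the substrates, 8 of 15 tested genes were higher without overlap and 0 lower (all genes 12.0% and 11.3%). Col1a1, a chain of type I collagen, was at 4.69, 14.1 and 4.36 CPM in Db and at 370, 178 and 25.2 CPM in Db + Ato10. Among 11 tested genes of a list of other matrix and lysosomal genes, mostly proteases, 1 was higher and 1 lower without overlap, with a median log2 fold change of -0.13. Differences between these lists were not tested. The lysosomal membrane genes Lamp1 and Lamp2 had log2 fold changes of -0.01 and -0.13, and both signs turned without Db + Ato10 replicate 1 (0.10 and 0.05).

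Markers of the nephron were lower in some Db + Ato10 libraries. Proximal tubule markers, led by Slc34a1, summed to 4225, 3262 and 3937 TPM in Db and to 435, 1856 and 3917 TPM in Db + Ato10, with 1 of 5 lower without overlap (all genes 11.3%). Thick ascending limb markers (Umod the most abundant) summed to 3106, 3729 and 3369 TPM in Db and to 2197, 1062 and 2770 TPM in Db + Ato10, each Db + Ato10 library being below the Db range, with 1 of 2 lower without overlap and Umod overlapping in CPM. Collecting duct markers, led by Aqp2, summed to 617, 418 and 896 TPM in Db and to 486, 272 and 536 TPM in Db + Ato10, with 2 of 3 lower without overlap. Podocyte markers, led by Podxl, summed to 218, 140 and 136 TPM in Db and to 199, 72.5 and 134 TPM in Db + Ato10, and endothelial markers, led by Emcn, to 204, 184 and 200 TPM and to 266, 119 and 195 TPM, with 0 of 4 and 1 of 5 lower without overlap. None of these nephron and endothelial markers was at 0 in a library. Urothelial and squamous markers, led by Krt5, summed to 8.16, 3.79 and 5.21 TPM in Db and to 150, 89.1 and 25.9 TPM in Db + Ato10, with Krt5, Krt14 and Krt15 of 5 tested higher without overlap. These 3 reached 10 counts in no Db library and so were tested only because they were high in the Db + Ato10 group, and they carried most of the sum in the Db + Ato10 libraries, while Upk1a, the largest in the Db libraries, had a log2 fold change of -0.66 with overlap. In this list 1, 4, 3, 0, 1 and 1 of the 10 markers were at 0 in the 6 libraries. T cell markers (most abundant Cd3g) summed to 1.66, 5.44 and 2.11 TPM and to 17.0, 22.1 and 3.13 TPM, B and plasma cell markers (Jchain) to 5.49, 22.4 and 7.21 TPM and to 289, 92.4 and 15.2 TPM, and mast cell markers (Kit) to 6.95, 6.48 and 4.29 TPM and to 9.52, 7.37 and 3.55 TPM. Higher without overlap were 0 of 3 T cell, 1 of 3 B and plasma cell and 0 of 1 mast cell markers tested (all genes 12.0%), and 0 were lower. None of 5 T cell markers was at 0 in a library, while 1 of 5 B and plasma cell markers was at 0 in Db replicates 1 and 2, and of 5 mast cell markers 3, 3, 2, 0, 0 and 4 were at 0 in the 6 libraries. The part of these cell types in the levels of the members was not tested.

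**Figure D4:**
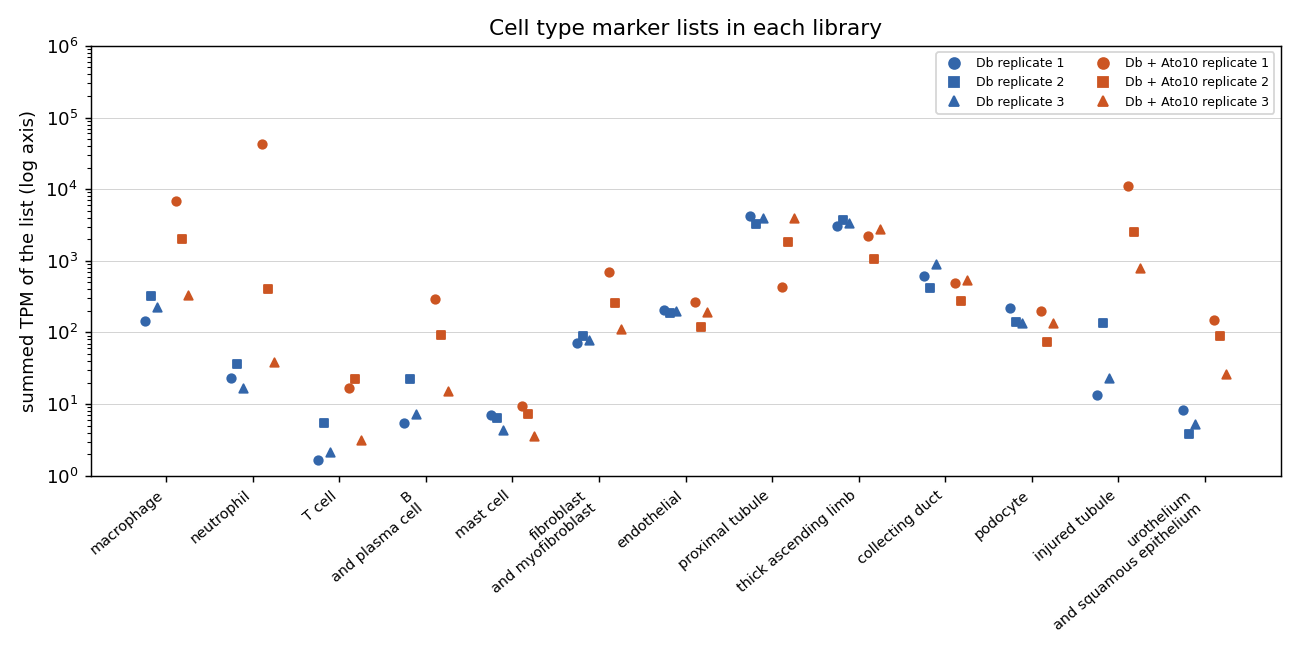
Summed TPM (y axis, log scale) of each cell type marker list on the x axis, for each library (Db in blue, Db + Ato10 in orange, replicates 1, 2 and 3 as circles, squares and triangles). Neutrophil markers reach 42764 TPM in Db + Ato10 replicate 1 against at most 36.1 TPM in a Db library, and proximal tubule markers are lowest there, at 435 TPM.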

How the data were processed

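Kidney RNA was sequenced by the authors on the BGISEQ-500 platform after Trizol extraction. For genes and transcripts the authors deposited expected counts, which are estimated reads without normalization. The authors deposited FPKM and TPM for genes, both scaled to length and library size. The submitters' processing notes name HISAT, Bowtie2 2.2.5 and the build mm9, without their roles. Fits used the expected counts, rounded to integers, and edgeR 4.0.16 in R 4.3.3 (TMM, quasi-likelihood F test, installed defaults) over every gene that reached 10 counts in 3 or more libraries, and each fit without a library kept the same genes. The standard error was the log2 fold change over the root of its F value. The fit was tested on simulated data, where DESeq2 made more false calls than edgeR. The members and lists were chosen with earlier results of these data known. Named by rule were every Timp, Plat, Plau and Plaur, members called by DESeq2, the 2 tested members with the highest TPM in each family, and up to 3 per direction with the largest change without overlap; the other members are given by counts and log2 fold changes, and those singled out were picked after their values were seen. Alternatives were DESeq2 1.42.0, limma-voom (limma 3.58.1), upper-quartile scaling, other filters and thresholds, the replicate block, limma on FPKM or TPM with a pseudocount of 1 or 0.1, and each library left out. Promoters and gene order came from RefSeq GRCm38.p6, matched by gene number, and no coordinate of the authors' build was used. Plots used Python 3.11.15 and matplotlib 3.10.9. Proteins were not analysed here.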

Additional observations from a re-analysis of the deposited data

How the results depend on the processing

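The number of members called was 0 with edgeR (31 at an unadjusted p under 0.05) and also with limma-voom, upper-quartile scaling, other filters and thresholds and limma on FPKM or TPM, and 21 with DESeq2. With a library left out it ranged from 0 to 34 over edgeR and DESeq2, and edgeR gave 25 without Db + Ato10 replicate 3 and 0 otherwise. DESeq2 gave 6, 15 and 4 without Db replicates 1, 2 and 3, and 8, 12 and 34 without Db + Ato10 replicates 1, 2 and 3, where it called 195, 621, 224, 356, 445 and 2711 of the 13679 genes. The count at an unadjusted p under 0.05 was 14 with limma-voom (1820 of 13679 genes) and ranged from 19 (without Db replicate 1 or 3, 1061 and 1134 genes) to 37 (without Db + Ato10 replicate 3, 4119 genes) with a library left out, beside 2314 genes with all libraries. The count of members without overlap, 22, was 20 on the deposited TPM and 16 of 50 with at least 10 counts in every library, and ranged from 23 to 39 with a library left out, chosen after seeing the data, where 29.3% to 50.6% of all genes did not overlap, since fewer libraries overlap less often. Over the same fits the median log2 fold change of the ADAMTS genes ranged from 0.20 to 0.66 and that of the ADAMTS-like genes from -0.01 to 0.58. The latter was 1.38 in a new fit of the genes with at least 10 counts in every library, which leaves out Adamtsl3 (1.35 for these genes in the main fit), and the median of all members was 1.11 with no filter on low counts, which adds members high in the Db + Ato10 group. Adamtsl2 (-0.46 to 0.06) and Plau (-0.46 to 0.09) changed sign when a library was left out, and the cause was not tested. Of 472 values of the 32 named and tested genes under other settings, 4 had the opposite sign. Many of these genes were named for large changes in the same data, so few turned signs follow in part from that choice. Among the other tested members, the signs of Adam17, Adamts13, Adamts14, Adamts15, Adamtsl1, Mmp17, Mmp28, Ctsh and Ctso turned with a library left out.

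The deviations of same-numbered libraries from their group means had correlations of -0.151, 0.061 and 0.208. Those of differently numbered libraries ran from -0.374 to 0.311. With 3 libraries a group these values cannot show whether the numbers pair the mice. With the replicate block edgeR called 0 members, and 26 had an unadjusted p under 0.05, as did 1856 of all genes. Depth limits the members near the floor of 0.198 to 0.260 CPM, and 3 libraries a group limit all single-gene statements.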
